A study of Mus musculus with 6 samples.

Results

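The genes described here build, load and fuse the vesicles that carry proteins between the endoplasmic reticulum (ER) and the Golgi apparatus. They are 56 named genes: 9 subunits of the COPII coat, 5 genes of the COPII GTPase and the ER exit site, 9 subunits of the COPI coat, 3 genes of the COPI GTPase and its exchange factor, 16 cargo receptors, 12 genes of the SNARE class and 2 tethers. A gene was measured where the transcript accession of an array probe mapped to it, and it was read from its brightest probe. All 56 were among the 16490 genes tested.

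COPII coats form on the ER when Preb loads the small GTPase Sar1, and they bud vesicles that travel forward to the Golgi. COPI coats, recruited by the Arf GTPases, return ER residents and used machinery from the Golgi. Cargo receptors span the membrane and link soluble cargo to the coat, tethers catch arriving vesicles, and SNAREs on both membranes zip together to fuse them. Neurons depend on this route to supply membrane proteins and lipids to long processes.

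RNA came from neuro2a (N2a), a mouse neuroblastoma cell line, and was hybridised to 6 Agilent one-colour arrays. On 3 arrays, here called control, the sample titles say Vector, which is read here as the empty vector. On the other 3, called knockdown, the miR RNAi vectors were for NF-YA and for NF-YC. Both are parts of NF-Y, a transcription factor that binds the motif CCAAT in promoters. Per the study's methods the vectors, built on a plasmid that also encodes EmGFP, were transfected and the cells were kept for 2 more days, so the arrays show an early state of a transiently transfected line. A sort for transfected cells is not described for this line. The methods name both an empty vector and a non-targeting RNAi vector as controls. If the titles mean the first, these controls carried no non-targeting RNAi. The labels do not say that replicates came from separate cultures, so p-values measure only the spread between these samples, which may be technical.

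As a check of the labels, Nfya was lower in knockdown by 0.76 on the log2 scale (change -0.76, SE 0.055, limma adjusted p = 0.0013) and Nfyc by more (change -1.81, SE 0.045, adjusted p = 0.00032). Between 61.9% and 66.2% of spots were well above background, and the intensity at each array's 75th percentile ranged from 718 to 754 units. All 3 control arrays and knockdown array 1 lay in row 1 of the slide and knockdown arrays 2 and 3 in row 2. Of 10 neuroblast and neuron markers, 9 were tested and all 9 were well above background on every array, among them Tubb3, Gap43 and Hand2. Of 16 markers of glia, blood and fibroblasts, 15 were tested, 11 were well above background on every array and 2 (Cx3cr1 and Col3a1) on none. Within that list Col1a1 was among the genes called lower and Pdgfra was called higher, and the list's summed intensity was 2731 to 3513 on control and 2318 to 2645 on knockdown arrays, against 140549 to 155306 for the neuronal list over all 6 arrays. The part of these markers in the results was not tested. In RNA from whole cultures, fewer cells of a type and less RNA per cell cannot be told apart.

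Normalized signal below is a log2 processed intensity less that of the array's 75th percentile, and a change is knockdown minus control on that log2 scale. A gene was called when its limma adjusted p was below 0.05 and its fold change above 1.5. Of the 56 genes, 5 were called lower, which is 8.93%, beside 5.00% of all genes tested. The 5 were the cargo receptors Lman2l, Tmed1 and Lman1, and Sec22c and Sec22a of the SNARE class. None was called higher by limma, beside 3.91% of all genes tested. At an unadjusted p below 0.05, 6 were higher, beside 3832 of all 16490 genes tested. With no minimum fold, 13 were lower (23.2%, beside 15.8% of all genes) and 3 were higher (5.36%, beside 15.7%). With scaling on spike-in spots 4 were lower with no minimum fold, and the matching share of all genes is not given here. At the 1.5-fold limit that scaling called 4 of the 56 lower instead of 5. Over all genes tested it called 695 lower instead of 824. A fit with the slide row rests on knockdown array 1, and there Lman1 stood at -0.58 and Sec22a at -0.55. The 3 knockdown arrays all lay below the 3 control arrays for 24 genes (42.9%, beside 27.1%) and above them for 8 (14.3%, beside 27.7%), so that 32 did not overlap between groups (57.1%, beside 54.7%). The median change of the 56 genes was -0.049, and that of all genes tested was 0.0053. All 56 probes were well above background on all 6 arrays.

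**Figure D1:**
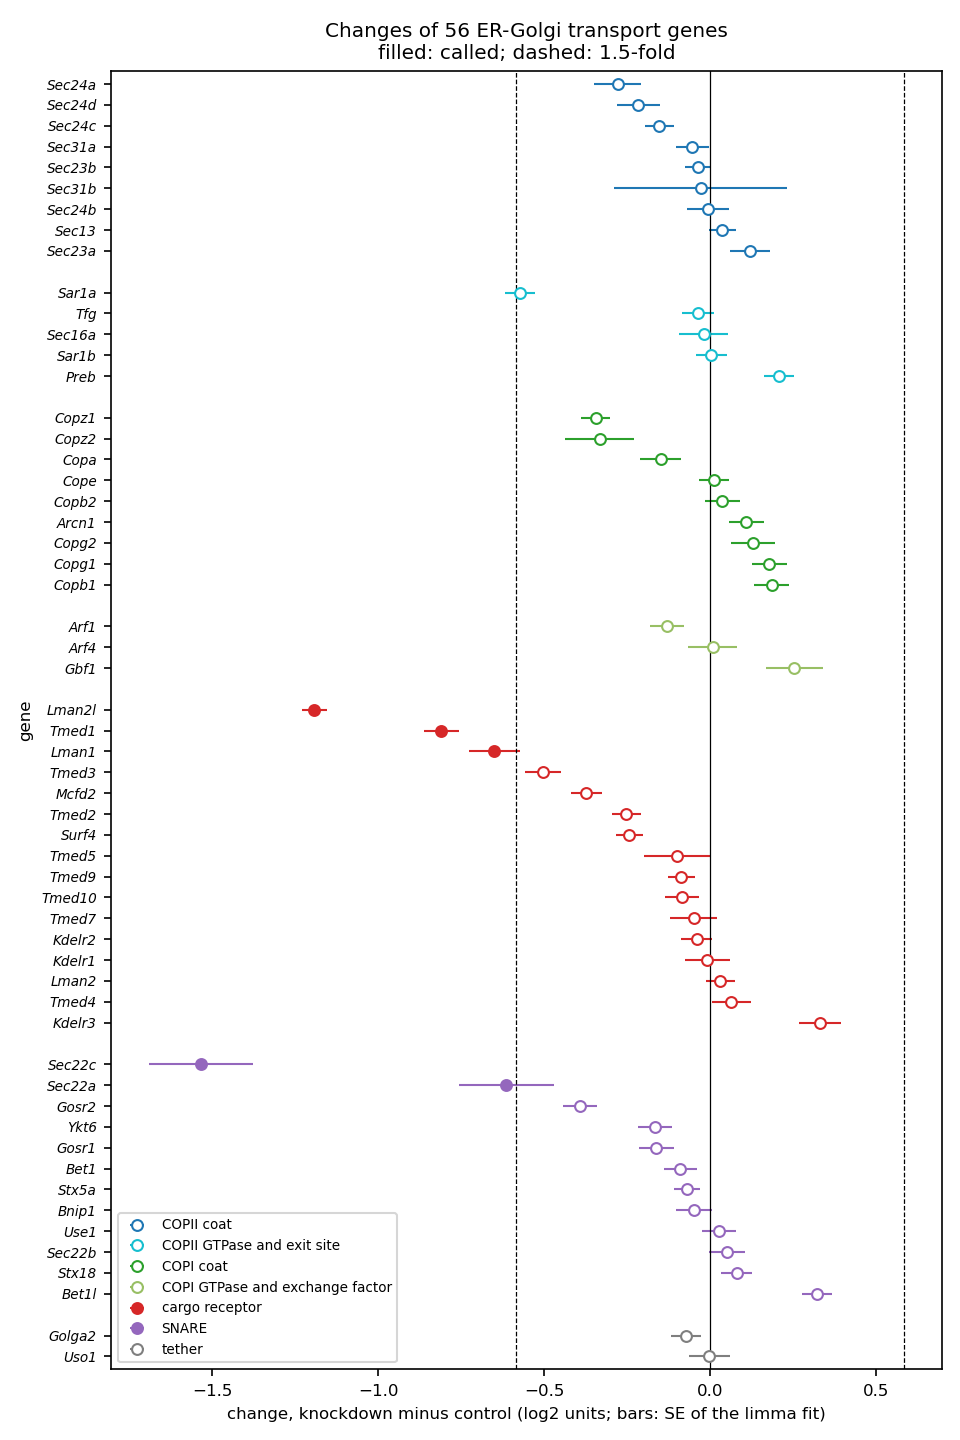
Change of each of the 56 genes, knockdown minus control in log2 units on the horizontal axis, with the standard error of the limma fit as bars, for 3 arrays a group. Genes are grouped by role and filled points are called; the 5 filled points are all to the left, 3 among the cargo receptors and 2 in the SNARE class.

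Of the 18 coat subunits none was called by limma, beside 5.00% of all genes called lower and 3.91% higher. At an unadjusted p below 0.05, 5 were lower and 2 higher, beside 3781 and 3832 of all 16490 genes tested. At an adjusted p below 0.05 with no minimum fold 2 were lower (11.1%, beside 15.8% of all genes) and none was higher (beside 15.7%). This count of 2 moved between 0 and 5 under other settings. The changes of the 18 ran from -0.34 to 0.19 with a median of -0.017. Across the COPII coat, whose inner layer is Sec23 with the cargo-binding Sec24 and whose outer cage is Sec13 with Sec31, the median was -0.036, and across the COPI coat it was 0.037. In both coats 3 of 9 subunits had all knockdown arrays below the controls, beside 27.1% of all genes, and 3 of 9 COPI subunits and no COPII subunit had them above, beside 27.7%.

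Among COPII subunits the lowest change was that of Sec24a, a cargo-binding adaptor. Its normalized signal was -0.45, -0.46 and -0.28 on the control arrays and -0.63, -0.75 and -0.64 on the knockdown arrays. The groups did not overlap, and the change was -0.28 (SE 0.072, limma adjusted p = 0.048). A dimmer Sec24a probe gave -0.44 (SE 0.059, adjusted p = 0.0069), and the dimmest gave 0.013 with an SE of 0.20. Its adjusted p stayed below 0.05 under 9 of 21 alternatives, and was 0.079 to 0.13 when any single array was left out. Sec24d and Sec24c, which select overlapping sets of cargo, had changes of -0.22 (adjusted p = 0.075) and -0.15 (adjusted p = 0.063). The highest COPII change was 0.12, of Sec23a, the GTPase-activating subunit of the inner layer (SE 0.061, adjusted p = 0.23), whose knockdown arrays overlapped the controls.

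Among COPI subunits Copz1, a small subunit of the cargo-binding layer of the coat, had the lowest change. It stood at 5.89, 5.91 and 5.86 on control arrays and 5.56, 5.49 and 5.58 on knockdown arrays, with no overlap. The change was -0.34 (SE 0.045, limma adjusted p = 0.0063), short of the fold needed for a call. Its relative Copz2 had a similar change of -0.33 that did not pass the test (SE 0.10, adjusted p = 0.080). A dimmer Copz2 probe did pass it, at -0.49 (SE 0.082, adjusted p = 0.013), as did the mean of both probes, at -0.41 (adjusted p = 0.0043). At the other end was Copb1, another subunit of the same layer, at 0.19 (SE 0.052, adjusted p = 0.059). Copg1, the gamma subunit, stood at 0.18 (adjusted p = 0.069), and a dimmer probe of it gave -0.10.

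The GTPases that start the coats included 1 change close to a call. Sar1a, which inserts into the ER membrane to begin COPII assembly, had a normalized signal of 5.34, 5.28 and 5.34 on control arrays. On knockdown arrays it was 4.74, 4.72 and 4.78, below every control array. The change was -0.57 (SE 0.045, limma adjusted p = 0.0015), a 1.49-fold difference just under the 1.5-fold limit. Without control array 2, or without knockdown array 3, the change was -0.59 and the gene was called. A dimmer probe matched to the same transcript gave 0.051 (SE 0.053, adjusted p = 0.54), so the lower value rests on the brighter probe. Sar1b, its paralog, had a change of 0.0037 (adjusted p = 0.97), with the groups overlapping. With scaling on the array median it was -0.11, as was the median of all genes.

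Preb, the exchange factor that activates Sar1, passed the test upward, though not under most alternatives. It went from 4.44, 4.41 and 4.36 on control arrays to 4.64, 4.59 and 4.60 on knockdown arrays, a change of 0.21 (SE 0.044, limma adjusted p = 0.028). Its other probes gave 0.18 and 0.22. The adjusted p stayed below 0.05 under 10 of 21 alternatives. It was 0.063 to 0.088 when any single array was left out, 0.078 with the replicate block, 0.11 with the slide row, 0.061 without the filter on low signal, and 0.53 and 0.48 with scaling on spike-ins and on the array median, where the change was 0.17 and 0.091. On the COPI side none of the 3 genes passed the test: Arf1, the GTPase that recruits the coat, had a change of -0.13 (adjusted p = 0.15) and Gbf1, its exchange factor at the early Golgi, a change of 0.25 (adjusted p = 0.10).

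Of the 16 cargo receptors, 3 were called lower (18.8%, beside 5.00% of all genes tested) and none higher (beside 3.91%). At an unadjusted p below 0.05, 1 was higher, beside 3832 of all 16490 genes. At an adjusted p below 0.05 with no minimum fold 7 were lower (43.8%, beside 15.8%) and 1 was higher (6.25%, beside 15.7%). With spike-in scaling 3 were lower with no minimum fold, and the matching share of all genes is not given here. At the 1.5-fold limit 3 were still called lower, beside 695 of all genes tested instead of 824. In 8 of 16 all knockdown arrays lay below all controls (beside 27.1% of all genes) and in 1 above (beside 27.7%). The median change was -0.092, and the changes ran from -1.19 to 0.33.

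Lectin receptors hold newly made glycoproteins by their sugars. Lman2l, an L-type lectin of the ER, had the lowest change of the class. Its normalized signal was 3.96, 3.99 and 3.97 on control arrays and 2.80, 2.78 and 2.77 on knockdown arrays. The spread within a group was small beside the gap between groups, and the change was -1.19 (SE 0.038, limma adjusted p = 0.00032), a 2.28-fold lower signal. In intensity units that was 11698 to 11817 on control and 4918 to 5190 on knockdown arrays.

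Lman1, the lectin that cycles between the ER and the ER-Golgi intermediate compartment, had 3.72, 3.52 and 3.74 on control arrays and 3.08, 3.01 and 2.94 on knockdown arrays. The groups did not overlap, and the change was -0.65 (SE 0.077, limma adjusted p = 0.0049). The call depended on the probe: a dimmer probe, annotated to another RefSeq transcript of Lman1, gave 0.025 (SE 0.065, adjusted p = 0.82), and the mean of both gave -0.31. With the slide row in the fit the change was -0.58 and the adjusted p was 0.059. Mcfd2, the soluble partner with which Lman1 carries blood clotting factors, was lower by less than the fold limit. It went from 3.77, 3.78 and 3.85 on control arrays to 3.45, 3.38 and 3.44 on knockdown arrays, a change of -0.37 (SE 0.047, adjusted p = 0.0057).

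Lman2, the third L-type lectin here and a receptor that reaches the Golgi, did not follow. It was at 5.22, 5.16 and 5.17 on control arrays and 5.25, 5.21 and 5.18 on knockdown arrays. The groups overlapped, and the change was 0.031 (SE 0.043, limma adjusted p = 0.66). Scaling on the array median or on spike-in spots, or averaging its probes, turned the sign, to -0.086, -0.0099 and -0.073. The 2 scalings also moved the median of all genes, to -0.11 and -0.035. A dimmer Lman2 probe gave -0.18 (SE 0.048, adjusted p = 0.056), with all knockdown arrays below the controls. Surf4, which binds amino-terminal signals of secreted proteins, was lower by a change of -0.24 (SE 0.040, adjusted p = 0.013), with an adjusted p of 0.051 and 0.055 without knockdown array 2 (-0.23) and 3 (-0.24).

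The TMED family, which pairs into heteromers that sort glycosylphosphatidylinositol-anchored and other cargo, had 8 members here. Tmed1 stood at 5.16, 5.15 and 5.02 on control arrays and at 4.30, 4.31 and 4.30 on knockdown arrays. Its knockdown arrays had an SD of 0.0041 (n = 3), and the change was -0.81 (SE 0.053, limma adjusted p = 0.0010), a 1.75-fold lower signal. Tmed3 came next, from 4.65, 4.59 and 4.50 to 4.11, 4.08 and 4.06, all below the controls, with a change of -0.50 (SE 0.054, adjusted p = 0.0036) that did not reach the fold limit. Tmed2 had a change of -0.25 by its brighter probe (SE 0.044, adjusted p = 0.015) and 0.058 by a dimmer one (SE 0.050, adjusted p = 0.47). Without control array 2 or knockdown array 1 or 2 the adjusted p of the brighter probe was 0.052, 0.053 and 0.058, with changes of -0.26, -0.25 and -0.24. The other 5 members did not pass the test.

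KDEL receptors return escaped ER proteins. Kdelr3 was the cargo receptor with the highest change. It stood at -2.26, -2.29 and -2.23 on control arrays and at -1.83, -2.01 and -1.95 on knockdown arrays, all above the controls. The change was 0.33 (SE 0.062, limma adjusted p = 0.019), and the adjusted p stayed below 0.05 under 14 of 21 alternatives. Without control array 1 or 2 or knockdown array 3 it was 0.066, 0.069 and 0.062, with changes of 0.33, 0.32 and 0.34. Neither Kdelr1 nor Kdelr2 passed the test.

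**Figure D2:**
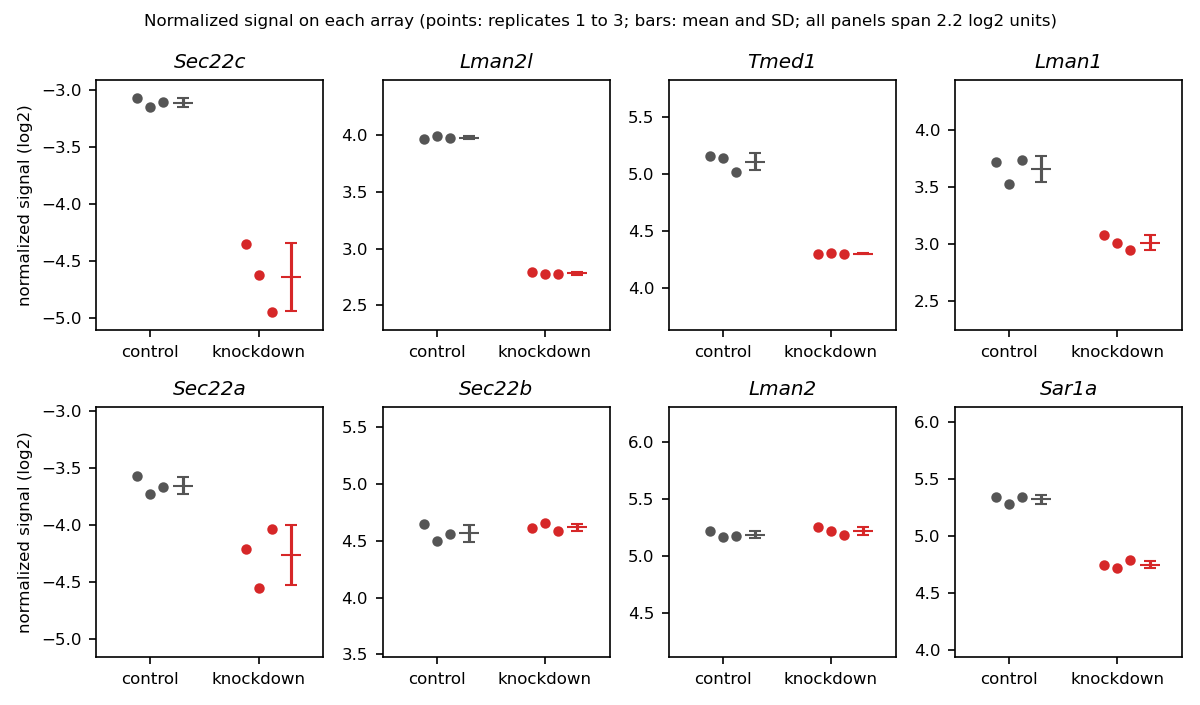
Normalized log2 signal of 8 genes on each array, control in grey and knockdown in red, with the mean and SD (n = 3) beside the points; every panel spans the same range. Lman2l, Tmed1, Lman1, Sec22c, Sec22a and Sar1a have no overlap between groups, while Sec22b and Lman2 overlap.

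Of the 12 genes of the SNARE class, 2 were called lower (16.7%, beside 5.00% of all genes) and none higher (beside 3.91%). At an unadjusted p below 0.05, 1 was higher, beside 3832 of all 16490 genes. With no minimum fold 3 of 12 were lower (beside 15.8% of all genes) and 1 was higher (8.33%, beside 15.7%). The median change was -0.079. Both called genes belong to the Sec22 family. As background, Sec22b is the SNARE of this family that acts in ER-Golgi fusion, whereas Sec22a and Sec22c share its amino-terminal longin domain and lack its SNARE motif.

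Sec22c stood at -3.07, -3.15 and -3.11 on control arrays and at -4.35, -4.62 and -4.95 on knockdown arrays. All knockdown arrays lay far below the controls and spread more than they did, with a change of -1.53 (SE 0.16, limma adjusted p = 0.0031) or 2.89-fold. This probe was dim: its intensity was 83.2 to 89.8 units on control and 23.7 to 36.5 on knockdown arrays. Under normexp background correction with an offset of 50 units the change was -0.72 or, with quantile normalization, -0.78, and the gene was still called. Its change was the widest of the 56 genes, but under normexp Lman2l had the wider one (-1.19 or -1.15).

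Sec22a was as dim, with 55.7 to 63.3 intensity units on control and 30.6 to 44.4 on knockdown arrays. Its normalized signal was -3.57, -3.73 and -3.66 against -4.21, -4.55 and -4.04, with no overlap. The change was -0.61 (SE 0.14, limma adjusted p = 0.036), and the gene was called under 9 of 21 alternatives. Leaving out control array 1, 2 or 3 or knockdown array 1 took the adjusted p to between 0.086 and 0.11, with changes of -0.57, -0.65, -0.62 and -0.64. Without knockdown array 2 the change was -0.47, under the fold limit, and under normexp it was -0.28 or -0.22.

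Sec22b, by contrast, was at 4.64, 4.50 and 4.55 on control arrays and 4.61, 4.65 and 4.58 on knockdown arrays. The groups overlapped and the change was 0.051 (SE 0.055, limma adjusted p = 0.56). With scaling on the array median it was -0.065, where the median of all genes was -0.11. Gosr2, a Golgi SNARE that pairs with Sec22b and Stx5a, went from 3.51, 3.42 and 3.51 to 3.14, 3.06 and 3.06, a change of -0.39 (SE 0.051, adjusted p = 0.0064). A dimmer Gosr2 probe gave -0.035 (SE 0.044, adjusted p = 0.62). Bet1l, a SNARE of traffic within the Golgi, was higher: 1.30, 1.32 and 1.30 on control arrays and 1.69, 1.59 and 1.61 on knockdown arrays, a change of 0.32 (SE 0.046, adjusted p = 0.0084). The tethers did not pass the test, with changes of -0.073 for Golga2 and -0.0026 for Uso1.

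Coat subunits and cargo receptors can be set side by side on each array. Relative to the mean of the control arrays, the mean normalized signal of the 18 coat subunits was -0.028, -0.062 and -0.041 on knockdown arrays 1, 2 and 3. For the 16 cargo receptors it was -0.21, -0.28 and -0.26. The 12 genes of the SNARE class stood at -0.17, -0.25 and -0.23, and all genes tested between -0.0070 and 0.025. The gap between coat subunits and cargo receptors was thus 0.18, 0.22 and 0.21 on the knockdown arrays (mean 0.20 ± 0.019, SD, n = 3), while on the control arrays it was -0.013, -0.012 and 0.024. No test was run on this gap, since the genes were chosen with results known. It lay between 0.17 (mean of a gene's probes) and 0.22 under all alternatives tried, and within slide row 1 alone it was 0.18. These are means, on which the few widest changes weigh. The median changes lay closer together, at -0.017 for coat subunits, -0.092 for cargo receptors and -0.079 for the SNARE class.

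**Figure D3:**
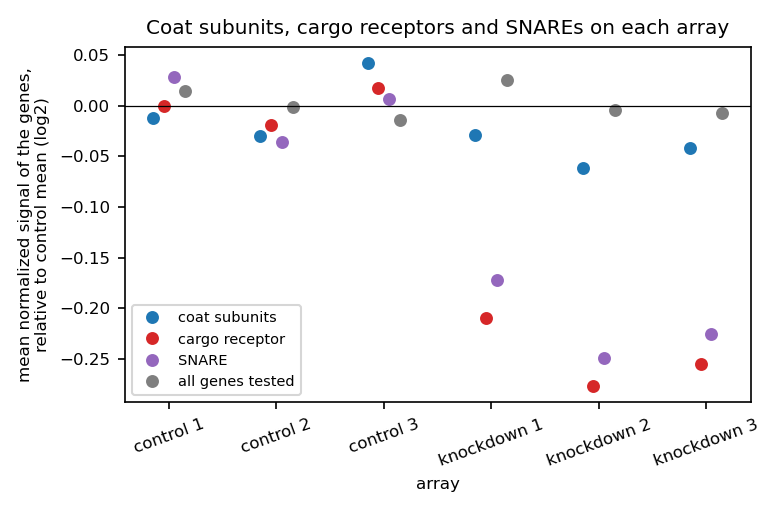
Mean normalized log2 signal of the coat subunits (18 genes), cargo receptors (16), SNARE class (12) and all genes tested (16490) on each of the 6 arrays, relative to the mean of the control arrays. On the knockdown arrays the coat subunits sit between -0.062 and -0.028, and the cargo receptors between -0.28 and -0.21. The means include the called genes, whose changes are the widest of their classes.

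Paralogs were compared directly, by the difference of their normalized signals on each array. Over 14 pairs, 9 had differences that did not overlap between groups, each with an exact two-sided permutation p of 0.1, the smallest that 3 against 3 arrays allow, and 0.16 after adjustment over the pairs. None can therefore pass 0.05. The pairs were also chosen with earlier results of these data known, and Lman2 and Sec22b each serve more than 1 pair. These p-values are therefore a description only. The share of single genes with no overlap was 54.7% over all genes tested, beside 9 of 14 pairs here. No such share was computed for differences of other gene pairs. The separated pairs with the widest differences were Sec22c against Sec22b (-1.58), Lman2l against Lman2 (-1.22), Lman1 against Lman2 (-0.68), Sec22a against Sec22b (-0.66) and Sar1a against Sar1b (-0.58). Under normexp with the 75th percentile the first fell to -0.77, behind Lman2l against Lman2, and Sec22a against Sec22b to -0.27. With a gene's probes averaged, Lman1 against Lman2 stood at -0.24, Sar1a against Sar1b at -0.26 and Gosr1 against Gosr2 at 0.051. Smaller differences were those of Bet1 against Bet1l (-0.41), Sec24a against Sec24b (-0.27), Gosr1 against Gosr2 (0.23) and Sec23a against Sec23b (0.16, and 0.071 under normexp with quantile normalization). The pairs Copz1 with Copz2, Copg1 with Copg2, Kdelr1 with Kdelr2, Sec31a with Sec31b and Sec24c with Sec24d overlapped between groups. Sec31b was dim, at 14.4 to 25.4 intensity units, and its pair had an SD of 0.52 on knockdown arrays. Copz2 was at 71.6 to 115 units. Overlap in these 2 pairs therefore does not show that the paralogs moved together.

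Several genes were read by more than 1 probe, and these did not always move together. There were 20 further tested probes for 18 of the 56 genes; 18 of the 20 lay within 0.5 log2 units of the brightest probe and 13 had the same sign, but none of the 20 was called. The widest gap, 0.67, was that of Lman1, the only called gene with a further probe, and the next was that of Sar1a. For Preb, Copa, Tmed9 and Tmed10 the probes had the same sign.

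**Figure D4:**
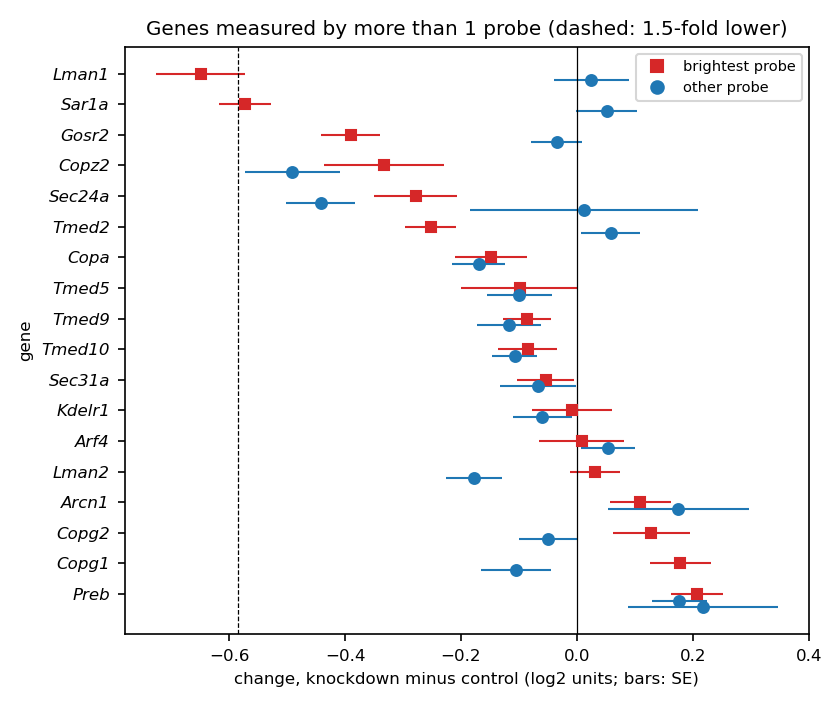
Change of every tested probe for the 18 genes read by more than 1 probe, in log2 units with the standard error as bars; red squares are the brightest probes and blue circles the others. For Lman1, Sar1a, Gosr2 and Tmed2 the brightest probe lies below 0 by 0.25 or more while the other lies between -0.035 and 0.058.

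Promoter sequences were then examined for CCAAT, the motif bound by NF-Y. A RefSeq table of assembly GRCm38.p6 held promoters, 250 bases before to 50 bases after a start site, for 51 of the 56 genes. Lman1, Kdelr2, Tmed7, Tmed2 and Arcn1 had no entry. The promoters below are those of the called genes in the table and of their relatives Lman2 and Sec22b, which were not called, shown because these hold a match as well. Each is the 250 bases before the start site, with capitals marking CCAAT read on either strand, so CCAAT or ATTGG. Lman2l was read from chr1:36445272-36445521 on the minus strand, Sec22c from chr9:121705030-121705279 on the minus strand, Tmed1 from chr9:21510235-21510484 on the minus strand and Sec22a from chr16:35363919-35364168 on the minus strand. Lman2 was read from chr13:55362784-55363033 on the minus strand and Sec22b from chr3:97900977-97901226 on the plus strand, all in GRCm38.p6.
Lman2l: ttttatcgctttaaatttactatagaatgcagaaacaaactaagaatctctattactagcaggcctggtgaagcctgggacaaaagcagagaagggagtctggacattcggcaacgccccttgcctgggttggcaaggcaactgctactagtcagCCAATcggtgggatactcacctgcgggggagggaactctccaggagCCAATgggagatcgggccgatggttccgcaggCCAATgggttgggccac
Sec22c: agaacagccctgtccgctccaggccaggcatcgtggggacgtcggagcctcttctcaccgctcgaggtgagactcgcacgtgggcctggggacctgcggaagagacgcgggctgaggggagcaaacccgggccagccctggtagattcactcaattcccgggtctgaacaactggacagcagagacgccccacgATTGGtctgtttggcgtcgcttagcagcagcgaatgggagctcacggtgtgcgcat
Tmed1: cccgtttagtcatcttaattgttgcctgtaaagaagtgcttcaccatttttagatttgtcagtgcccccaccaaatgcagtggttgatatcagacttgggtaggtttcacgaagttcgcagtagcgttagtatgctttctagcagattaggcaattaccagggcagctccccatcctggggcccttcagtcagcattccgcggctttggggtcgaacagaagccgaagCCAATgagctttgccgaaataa
Sec22a: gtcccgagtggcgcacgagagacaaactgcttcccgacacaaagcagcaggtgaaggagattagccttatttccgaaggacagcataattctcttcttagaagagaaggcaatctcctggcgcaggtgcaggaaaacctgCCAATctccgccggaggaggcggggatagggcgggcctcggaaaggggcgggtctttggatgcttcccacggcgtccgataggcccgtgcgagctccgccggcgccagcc
Lman2: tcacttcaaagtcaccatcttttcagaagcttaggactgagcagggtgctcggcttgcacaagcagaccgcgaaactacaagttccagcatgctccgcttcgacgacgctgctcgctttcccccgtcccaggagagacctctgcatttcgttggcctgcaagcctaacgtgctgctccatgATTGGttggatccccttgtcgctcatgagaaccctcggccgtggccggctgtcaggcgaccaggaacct
Sec22b: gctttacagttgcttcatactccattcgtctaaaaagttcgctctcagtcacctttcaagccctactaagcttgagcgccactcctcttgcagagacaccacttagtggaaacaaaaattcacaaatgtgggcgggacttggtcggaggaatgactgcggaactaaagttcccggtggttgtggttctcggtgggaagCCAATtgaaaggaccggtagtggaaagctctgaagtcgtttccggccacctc

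Lman2l held 3 matches, starting 95, 49 and 17 bases before the start site. Sec22c held 1 on the other strand 56 bases before it, Sec22a 1 at 110 bases, and Tmed1 1 at 22 bases, with a further match 128 bases before its other start site. Lman2 and Sec22b, whose brightest probes overlapped between groups, held matches 69 and 52 bases before theirs. A match is a description of the letters in this window and not a bound site.

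At least 1 match stood in the promoters of all 4 called genes in the table (exact 95% interval 39.8 to 100%). The same held for 19 of 47 that were not called (40.4%, 26.4 to 55.7%), so these intervals overlap. Over all genes tested with a promoter the share was 55.8% of those called lower (368 of 660), 36.5% of those called higher and 42.1% of those not called, and 37.4% of all 32851 promoters in the table held the motif. Among cargo receptors 7 of 12 held it (58.3%, exact 95% interval 27.7 to 84.8%), and in the SNARE class also 7 of 12. Among coat subunits 4 of 17 did (23.5%, 6.81 to 49.9%), so that the intervals of coat and cargo genes overlap; they cover counting error only. Of the genes lower with no call, 2 of 7 held a match, and of the 3 that were higher, 2 did. Counting only the bases before the start site left each of these member counts as it was.

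**Figure D5:**
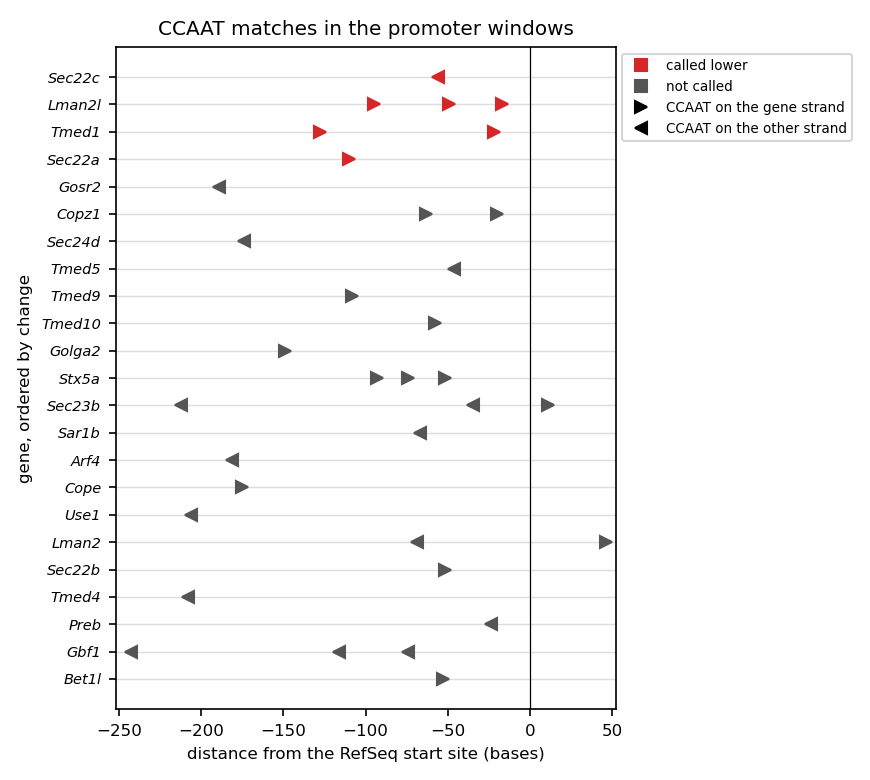
Position of each CCAAT match, in bases from the RefSeq start site, for the 23 genes of the 51 with a promoter that hold at least 1, ordered by change with the lowest at the top; right-pointing triangles lie on the gene's strand, left-pointing ones on the other. The 4 called genes, in red, are at the top, and genes with changes near or above 0 hold matches too; for genes with more than 1 start site, each match is placed from its own.

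Other genes of the route were read from a list of 80 names, of which 76 were tested. They were coat accessory factors, further cargo receptors grouped with other proteins, Rab GTPases, tethering complexes and SNARE regulators. Of these 1 was called lower (1.32%, beside 5.00% of all genes tested) and none higher (beside 3.91%). At an unadjusted p below 0.05, 14 were higher, beside 3832 of all 16490 genes. The called gene was Yif1a, a Golgi membrane protein of ER-Golgi traffic. It went from 3.75, 3.73 and 3.67 on control arrays to 3.13, 3.20 and 3.06 on knockdown arrays, a change of -0.59 (SE 0.055, limma adjusted p = 0.0024), and it was called under 13 of 21 alternatives. The call was lost without control array 1 (-0.57), control array 2 (-0.58) or knockdown array 3 (-0.55), each with a fold under the limit. With no minimum fold 17 of the 76 were lower (22.4%) and 11 higher (14.5%), beside 15.8% and 15.7% of all genes. The group with the further cargo receptors had 12 genes tested and a median change of -0.15, beside -0.092 for the 16 receptors above. It is mixed, as it includes Yif1a, Yif1b, Yipf5 and Svip, and is not a second set of cargo receptors. Knockdown arrays of these 12 genes all lay below the controls in 8 (66.7%, beside 27.1% of all genes) and above in 3 (25%, beside 27.7%). Yif1a and Svip were among the 8, and Yif1b and Yipf5 among the 3.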

How the data were processed

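Gene expression was measured on 3 control and 3 knockdown arrays, all on 1 slide with 1 scan time. The authors' image analysis was Agilent Feature Extraction 10.10.1.1, per the file headers. Its processed signal, deposited for each spot, is an intensity (linear units) from which background has been taken. The deposited series matrix holds log2 values. Their differences between arrays equalled those of the scaled processed signal within 0.0075 over 41771 probes with 1 spot. A constant removed from each probe therefore leaves their absolute level unknown, and the column medians lay between -0.012 and 0.018. Groups and replicate numbers follow the sample titles.

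Control and outlier spots were dropped. Processed signal was log2-transformed, scaled to the 75th percentile of the array and averaged over the spots of a probe. Probes had to reach the 20th percentile of their array on all 3 arrays of a group, which 42126 of 55681 did. Symbols were matched by accession to a RefSeq table of assembly GRCm38.p6. Because the array annotation is on a different build, probes are given without coordinates. Each gene is represented by its probe with the highest mean signal.

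Changes were fitted by limma 3.58.1 (R 4.3.3; lmFit, then eBayes; two-sided; no covariates), and p-values were adjusted by Benjamini-Hochberg across the 42126 probes. The code was tested on simulated data. The genes named are Nfya and Nfyc, called genes, the lowest and highest of each class, the 3 largest changes in each direction that passed the p threshold alone and called accessory genes, and any other member where its role or pair is described. The marker genes named were picked after their values were seen, and some marker genes are not reported here. The members, lists and pairs were chosen with earlier results of these data known. Arrays of the same replicate number did not deviate together (correlations of 0.018, 0.067 and 0.0025 across probes). Other deposited names number the control arrays differently from the titles, so this check cannot exclude that arrays were paired. Alternatives covered scaling, background correction (normexp on the spots' median signals, where mean signals had been planned), filters, thresholds, variance trend, array weights, blocks, probe averaging and each array left out.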

Additional observations from a re-analysis of the deposited data

How the results depend on the processing

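Sec22c and Lman2l were called under all alternatives run, and Tmed1 under all but a fold limit of 2. With that limit 2 members, 1 cargo receptor and 0 accessory genes were called lower, beside 286 of all 16490 genes tested. Leaving out each array gave 4 to 6 members called lower (main 5), 10 to 11 lower and 1 to 3 higher with no minimum fold, 1 to 2 coat subunits and 5 to 7 cargo receptors lower with no minimum fold, and 0 to 1 accessory genes called lower. Medians then ran from -0.069 to -0.041 for all members, -0.044 to 0.028 for coat subunits and -0.13 to -0.069 for cargo receptors, and the coat minus cargo difference from 0.20 to 0.22. Changes then ran from -0.73 to -0.47 for Sec22a, -0.59 to -0.56 for Sar1a, -0.019 to 0.027 for Sar1b and -0.028 to 0.039 for Uso1.

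The replicate numbers are not known to pair the arrays. With the replicate block 4 members were called lower, Sec22a losing its call (-0.61, adjusted p = 0.063), 1 coat subunit was lower and 0 members were higher with no minimum fold, and the called genes of the 16490 numbered 765 lower and 518 higher instead of 824 and 644. With the slide row as a block Lman1 stood at -0.58 and Sec22a at -0.55, and neither kept its call. Medians were then 0.098 for the COPI coat and 0.021 for coat subunits. The coat minus cargo difference was 0.18, and Uso1 stood at 0.038. This fit rests on knockdown array 1.

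Scaling on the array median moved the median of all genes to -0.11, so its values are relative to that. Medians were -0.15 (COPII coat), -0.079 (COPI coat), -0.13 (coat subunits), -0.21 (cargo receptors), -0.20 (SNARE class) and -0.17 (all members). Sar1a (-0.69), Tmed3 (-0.62) and 2 accessory genes were called lower. Over all genes tested 1175 were called lower instead of 824, and 382 higher instead of 644. With no minimum fold 1 coat subunit was lower and 0 members were higher. Lman2 (-0.086), Sar1b (-0.11) and Sec22b (-0.065) changed sign. Spike-in scaling gave 4 members, 3 cargo receptors and 0 coat subunits lower and 0 members higher with no minimum fold. With it 0 accessory genes were called lower, and of all genes 695 lower and 312 higher. The median of all genes moved to -0.035 under this scaling. Its medians were -0.089 (all members), -0.058 (coat subunits), -0.13 (cargo receptors) and -0.12 (SNARE class), with Lman2 at -0.0099, Sar1b at -0.037 and Sec22a at -0.65 without a call.

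Quantile normalization gave medians of 0.094 (COPI coat), 0.016 (coat subunits) and -0.0094 (all members) and Uso1 at 0.025. It called 0 accessory genes lower, beside 857 of all genes. Normexp with quantile normalization called 3 members and 0 accessory genes lower, without Lman1 (-0.56) and Sec22a (-0.28), with 4 coat subunits lower and 6 members higher at no minimum fold and medians of 0.12 (COPI coat), -0.0048 (SNARE class) and 0.047 (coat subunits). Over all genes it called 556 lower and 283 higher. Normexp with the 75th percentile called 0 accessory genes lower and 1 higher, beside 584 and 275 of all genes, and left Sec22a at -0.22. It had 4 coat subunits lower and 5 members higher at no minimum fold, and medians of 0.084 (COPI coat) and -0.030 (SNARE class).

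An intensity trend gave 5 coat subunits lower and 5 members higher with no minimum fold, and the filter on signal well above background gave 4 and 5. No filter left 1 coat subunit lower and Sec22a without a call. Averaging a gene's probes gave 5 coat subunits lower, a coat minus cargo difference of 0.17, Lman1 at -0.31 and Lman2 at -0.073. Uso1 stood at 0.010 with array weights, and Sar1b at -0.00047 in the series matrix. The 9 separated paralog differences kept their sign under all alternatives run, but 6 shrank by more than 2 times under one of them: Sec22c against Sec22b to -0.77, Lman1 against Lman2 to -0.24, Sar1a against Sar1b to -0.26, Sec22a against Sec22b to -0.27, Gosr1 against Gosr2 to 0.051 and Sec23a against Sec23b to 0.071. Of the genes past the p threshold alone, Tmed3 and Sar1a stayed past it under 20 of 21 alternatives, Copz1, Mcfd2 and Gosr2 under 19, Bet1l under 18, Surf4 under 16, Kdelr3 under 14, Tmed2 under 13, Preb under 10 and Sec24a under 9. Each of these counts includes the fold limit of 2, which reuses the main fit and so its adjusted p. The cause of the shifts between alternatives was not tested. With 3 arrays a group, and with Sec31b, Sec22c and Sec22a below 90 intensity units, small changes and dim probes are the least certain.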
